A study of Homo sapiens with 6 samples.

Results

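The genes described here are 32 genes that the androgen receptor activates in prostate cells, measured in VCaP cells after knockdown of SOX9. Members were chosen by name: a gene's values are those of probe sets whose symbol in the array's annotation is exactly that of the member, and the probe set with the highest mean signal over the 6 arrays stands for the gene. Of the 32 genes, 27 had a probe set of their own among 19775 genes with one, and 26 passed the filter on dim genes among 12431 genes tested. SORD, HERC3, KCNN2, ADAM7 and ACSL3 had none in the annotation used here and were not analysed here. AZGP1, a secreted zinc-binding glycoprotein of prostate fluid, was too dim to test, at 4.6 and 12.4 with siRNA A and at 6.8 and 6.4 with siRNA B, against 10.9 and 17.9 with control siRNA.

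VCaP is an established cell line of prostate cancer with the TMPRSS2/ERG genotype, in which the androgen-driven TMPRSS2 promoter is joined to ERG. The cells grew in DMEM with FBS and were transiently transfected with SOX9 siRNA A, with SOX9 siRNA B or with non-target control siRNA, and RNA was taken at 72 h. The labels name no added androgen or antiandrogen, and all 3 groups grew in the same medium. Each group held 2 arrays (Affymetrix Human Genome U133 Plus 2.0), named biological duplicates of this 1 line in the design text. In such bulk RNA, fewer cells that express a gene and less of its RNA per cell cannot be told apart.

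The androgen receptor is a steroid receptor that enters the nucleus when it binds testosterone or dihydrotestosterone and binds DNA at androgen response elements, which are paired AGAACA-like half-sites. In luminal cells of the prostate it drives the genes of secreted proteases such as prostate-specific antigen, and those of transporters, lipid enzymes and signalling proteins. SOX9 is a transcription factor of the high-mobility-group box family that is expressed in prostate epithelium and in prostate tumours.

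The promoters of KLK3 and KLK2, neighbours of 1 protease family, show how close related targets can be in sequence. Both are shown on the plus strand of GRCh38.p14, from 250 bases before to 50 bases after the RefSeq start, at chr19:50854665-50854964 for KLK3 and at chr19:50873189-50873488 for KLK2. Capitals mark the response element of the KLK3 promoter and the stretch of KLK2 that aligns with it.
KLK3: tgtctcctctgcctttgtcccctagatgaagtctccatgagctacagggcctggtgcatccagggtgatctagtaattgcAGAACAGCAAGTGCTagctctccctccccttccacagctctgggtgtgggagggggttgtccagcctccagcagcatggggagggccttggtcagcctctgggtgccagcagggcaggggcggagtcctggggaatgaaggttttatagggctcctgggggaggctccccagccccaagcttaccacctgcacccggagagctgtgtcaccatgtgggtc
KLK2: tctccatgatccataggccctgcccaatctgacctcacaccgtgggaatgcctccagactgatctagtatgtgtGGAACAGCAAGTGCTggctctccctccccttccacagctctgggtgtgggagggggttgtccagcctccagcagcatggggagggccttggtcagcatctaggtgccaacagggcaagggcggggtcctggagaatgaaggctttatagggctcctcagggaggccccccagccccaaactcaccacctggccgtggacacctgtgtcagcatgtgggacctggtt
The element begins 170 bases before the KLK3 start and 176 bases before the KLK2 start. Counted from 1 at its 5′ end, the KLK2 stretch differs from that of KLK3 by A1G, so that 14 of 15 bases match. Over 294 bases aligned without gaps, 225 were identical (76.5%).

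Any member record on chr8 was left out, which was not done in the count over all records. RefSeq promoters were then found for 25 members, in 39 records. The half-site AGAACA, searched on both strands (TGTTCT on the other), occurred in 5 of them (12.8%), those of TRPM8, FKBP5 and KLK3 and 2 of PMEPA1, against 14.8% of all 35116 promoter records. The full palindrome, which is AGAACA and TGTTCT with 3 unspecified bases between them and so contains both half-sites, occurred in 0 member records and in 1 of all records. These letters describe a 300-base window only and name no binding site.

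The arrays had 2%-trimmed mean signals of 144 to 190.0 and median signals of 21.2 to 26.3. The knockdown itself was measured by the SOX9 signal, which was 1108 and 673 with siRNA A and 609 and 334 with siRNA B, against 1469 and 1126 with control siRNA. All 4 siRNA arrays lay below both controls. Here and below, a log2 fold change for both siRNAs compares the mean of the siRNA A and siRNA B groups with control. A single siRNA can differ from it in sign. For SOX9 this fitted fold change was -1.02, which did not pass the test (adjusted p = 0.434, and 0.00189 with the replicate number as a block). Of the luminal prostate markers with a probe set 8 of 8 were above the filter, with summed signals of 18305 to 23569.7 over the 6 arrays. Of 4 basal markers and of 5 leukocyte markers with a probe set, 1 each was above the filter, and 4 of 4 neuroendocrine markers were. Fibroblast markers summed to 496 and 787 with siRNA A, to 1037 and 2337 with siRNA B and to 469.6 and 640.0 with control siRNA, with 4 of 8 above the filter. LUM, the matrix proteoglycan lumican, made up most of the siRNA B sums, at 702 and 2019, against 155 and 385 with control siRNA. Of the 4 fibroblast markers tested, 1 had a positive and 3 had negative log2 fold changes for both siRNAs (median -0.13). With siRNA A 1 was positive and 3 were negative, and with siRNA B 2 were positive and 2 negative. The markers' part in any result was not tested.

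Values were tested as log2(signal + 16) with limma (two-sided tests), in 1 fit of the 3 groups over all genes, and a gene passed at a Benjamini-Hochberg adjusted p below 0.05. For both siRNAs against control, 0 of 26 members passed, where 0.0402% of all genes did. For siRNA A the count was 0 of 26 against 0.0161% of all genes, for siRNA B 0 of 26 against 0.185%, and for siRNA A against siRNA B 0 of 26 against 0.0965%. At an unadjusted p below 0.05 there were 10 members for both siRNAs (7.75% of all genes), 5 for siRNA A (4.69%), 7 for siRNA B (11.3%) and 4 for siRNA A against siRNA B (8.25%). The smallest adjusted p of any member was 0.0580, for HOMER2 with siRNA B.

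Arrays with the same replicate number deviated from their group means in part together, and another fit took that number as a block. With it, 5 of 26 members passed for both siRNAs, where 3.53% of all genes did. They were SLC45A3, STEAP1, STEAP2 and PLPP1, which were higher (1.11% of all genes), and HOMER2, which was lower (2.42% of all genes). For siRNA A alone 3 passed against 1.79% of all genes: SLC45A3 and PLPP1 were higher (0.426% of all genes) and HOMER2 was lower (1.37%). For siRNA B alone 5 passed against 5.94% of all genes: STEAP1 was higher (2.08% of all genes), and STEAP4, TRPM8, ABCC4 and HOMER2 were lower (3.86%). Between the siRNAs, TRPM8 and ABCC4 passed, both higher with siRNA A, where 2.9% of all genes passed, 1.5% higher and 1.41% lower. The pairing by number was chosen from the data with these calls known, and limma drew the blocked spread from its trend only, which can make blocked p-values too small.

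As a group the members were split. For the mean of both siRNAs 12 of 26 members had a positive log2 fold change and 14 a negative one, where 44.9% of all genes were positive. The median of the members was -0.04, the same as the -0.04 of all genes tested. The median size of the change, taken without its sign, was 0.38 for the members and 0.19 for all genes. These sizes were not matched for signal. The scale understates the change of dim genes, and the dimmest member tested, MAF, had a mean signal of 105.9, against a filter at 22.0. For siRNA A the median was 0.07 over the members and -0.05 over all genes, and for siRNA B it was -0.08 over the members and -0.02 over all genes. A log2 fold change of 1 or more in size was found in 2 members for both siRNAs and for siRNA A, SLC45A3 and HOMER2 (1.3% and 1.46% of all genes). It was found in 2 members for siRNA B, ABCC4 and HOMER2 (2.96%), and in 1 for siRNA A against siRNA B, ABCC4 (1.75%). The 3 comparisons against control share the same 2 control arrays.

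Set against the control mean, the median member level on the log2 scale came to 0.22 and 0.08 for the siRNA A arrays and to -0.13 and 0.09 for the siRNA B arrays, against -0.08 and 0.08 in the control arrays. The arrays of the 3 groups overlapped, and the SD between replicate arrays of this level was 0.13. The heat map of the members by array shows both signs side by side.

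**Figure D1:**
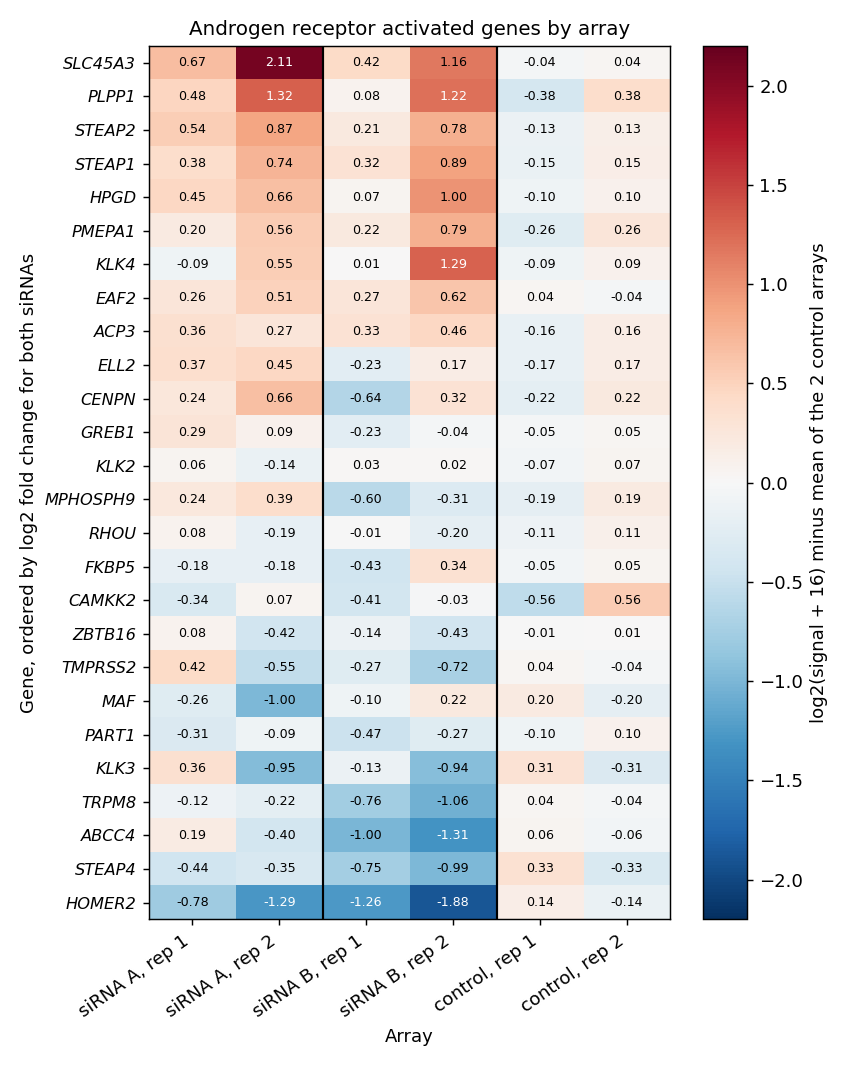
Log2 signal of each of the 26 tested members (rows) in each of the 6 arrays (columns: siRNA A, siRNA B, then control), as the difference from the mean of the control arrays, with colour from lower to higher. HOMER2 is lower in all 4 siRNA arrays and SLC45A3, STEAP1 and STEAP2 are higher in all 4, while most other rows mix both colours.

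Among the secreted proteins and the cell-surface protease TMPRSS2, 5 were tested, of which 2 had positive and 3 negative log2 fold changes for both siRNAs, from -0.41 to 0.44. KLK3 encodes prostate-specific antigen, the kallikrein protease measured in blood as a marker of prostate disease. Its signal was 2064 and 825 with siRNA A and 1474 and 832.5 with siRNA B, against 1998 and 1295 with control siRNA. The groups overlapped, and in each of them the first replicate was the brighter one. The log2 fold change for both siRNAs was -0.41 (SE 0.34, adjusted p = 0.846), with a 95% confidence interval of -1.13 to 0.30.

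KLK2 encodes the related kallikrein that can activate prostate-specific antigen. It had a signal of 17363 and 15122 with siRNA A and of 17044 and 16933 with siRNA B, against 15938 and 17513 with control siRNA. The groups overlapped, with a fitted log2 fold change of -0.01 (adjusted p = 0.992). This probe set had the highest signal of all on 4 of the 6 arrays, whose highest signals ran from 15918 to 17513, so its level was at the top of the measured range and its fitted value may understate a change. Dimmer KLK2 probe sets, with mean signals of 9494 and 2123, gave 0.05 and 0.21 for both siRNAs. KLK4, another kallikrein, was much dimmer, at 81.2 and 135 with siRNA A and at 88.5 and 238 with siRNA B, against 81.1 and 94.7 with control siRNA. Its groups overlapped, and its log2 fold change was 0.44 (adjusted p = 0.816).

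TMPRSS2, the serine protease whose promoter drives ERG in these cells, had a signal of 1818 and 926 with siRNA A and of 1124 and 819 with siRNA B, against 1401 and 1317 with control siRNA. The siRNA B arrays lay below both controls and the siRNA A arrays lay on either side of them. The log2 fold change for both siRNAs was -0.28 (SE 0.28, adjusted p = 0.881), with a 95% confidence interval of -0.86 to 0.31. ERG itself, the oncogenic transcription factor at the other end of the fusion, had 2726 and 1744 with siRNA A and 1555 and 1353 with siRNA B, against 1901 and 2312 with control siRNA. Here too the siRNA B arrays lay below both controls and the siRNA A arrays on either side of them, and the log2 fold change was -0.24 (adjusted p = 0.882).

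ACP3, the prostatic acid phosphatase, was among the brightest members. It had a signal of 13859 and 12999 with siRNA A and of 13549.7 and 14859 with siRNA B, against 9668 and 12084 with control siRNA. All 4 siRNA arrays were above both controls, with a log2 fold change of 0.35 (SE 0.13) that did not pass (adjusted p = 0.526, and 0.142 with the replicate block). It was 0.19 without the first control array. Other probe sets of ACP3 gave -0.01 and -0.10.

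Of the 6 membrane proteins tested, 3 had positive and 3 negative log2 fold changes for both siRNAs, from -0.63 to 1.09. SLC45A3, also known as prostein, is a sugar transporter of prostate cells. It had a signal of 531 and 1466 with siRNA A and of 443 and 752 with siRNA B, against 317 and 338 with control siRNA. All 4 siRNA arrays were above both controls, and the second replicate of each siRNA was the brighter one. The log2 fold change was 1.09 (SE 0.34), a 2.13-fold higher level with a 95% confidence interval of 0.36 to 1.82 on the log2 scale. It did not pass without the block (adjusted p = 0.468) and passed with it (0.000959), but missed the threshold with the block and arrays centred on the median of the genes tested (0.0968). Without the second siRNA A array the log2 fold change was 0.73.

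STEAP1, STEAP2 and STEAP4 belong to 1 family of transmembrane proteins, in which STEAP2 and STEAP4 are metalloreductases that reduce iron and copper. STEAP1 had a signal of 6756.5 and 8699 with siRNA A and of 6481 and 9608 with siRNA B, against 4687 and 5755 with control siRNA. STEAP2 had 3820.0 and 4802 with siRNA A and 3026.5 and 4507 with siRNA B, against 2396.5 and 2859 with control siRNA. For both genes all 4 siRNA arrays were above both controls. For STEAP1 the fitted log2 fold change came to 0.58 (SE 0.18), with an adjusted p of 0.468 without and of 0.0137 with the replicate block. For STEAP2 it was 0.60 (SE 0.21), with adjusted p = 0.492 without and 0.0484 with the block.

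STEAP4 had fitted values of the opposite sign. It had a signal of 134 and 144 with siRNA A and of 105 and 86.1 with siRNA B, against 241 and 145 with control siRNA. The 4 siRNA arrays were below both controls, though the second siRNA A array was next to the second control, and the groups overlapped after quantile normalization. The log2 fold change was -0.63 (SE 0.25, adjusted p = 0.567), and -0.30 without the first control array. With siRNA B alone it was -0.87 (adjusted p = 0.259, and 0.0263 with the block), a call that was lost with the block and centring on the genes tested (0.0888).

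TRPM8 is the cold- and menthol-gated calcium channel, and ABCC4 is an efflux transporter of cyclic nucleotides and prostaglandins. TRPM8 had a signal of 5462 and 5076.5 with siRNA A and of 3484 and 2825 with siRNA B, against 6106 and 5748 with control siRNA. The siRNA B arrays were far below the other 4, at 53.1% of control, with a log2 fold change of -0.91 (adjusted p = 0.0819, and 0.000656 with the block), while that of siRNA A was -0.17. The other TRPM8 probe set was dimmer, at 132 and 126 with siRNA A and at 92.2 and 83.3 with siRNA B, against 207 and 196 with control siRNA, and gave -0.58 for siRNA A and -1.07 for siRNA B. ABCC4 had 1628 and 1081 with siRNA A and 707 and 567 with siRNA B, against 1488.5 and 1369 with control siRNA. With siRNA B it was at 45.0% of control, a log2 fold change of -1.15 (adjusted p = 0.133, and 0.00137 with the block), and with siRNA A the fold change was -0.10.

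The plot of member signals gives these genes array by array. The siRNA A arrays of ABCC4 span the controls, and those of SLC45A3 lie well apart from each other.

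**Figure D2:**
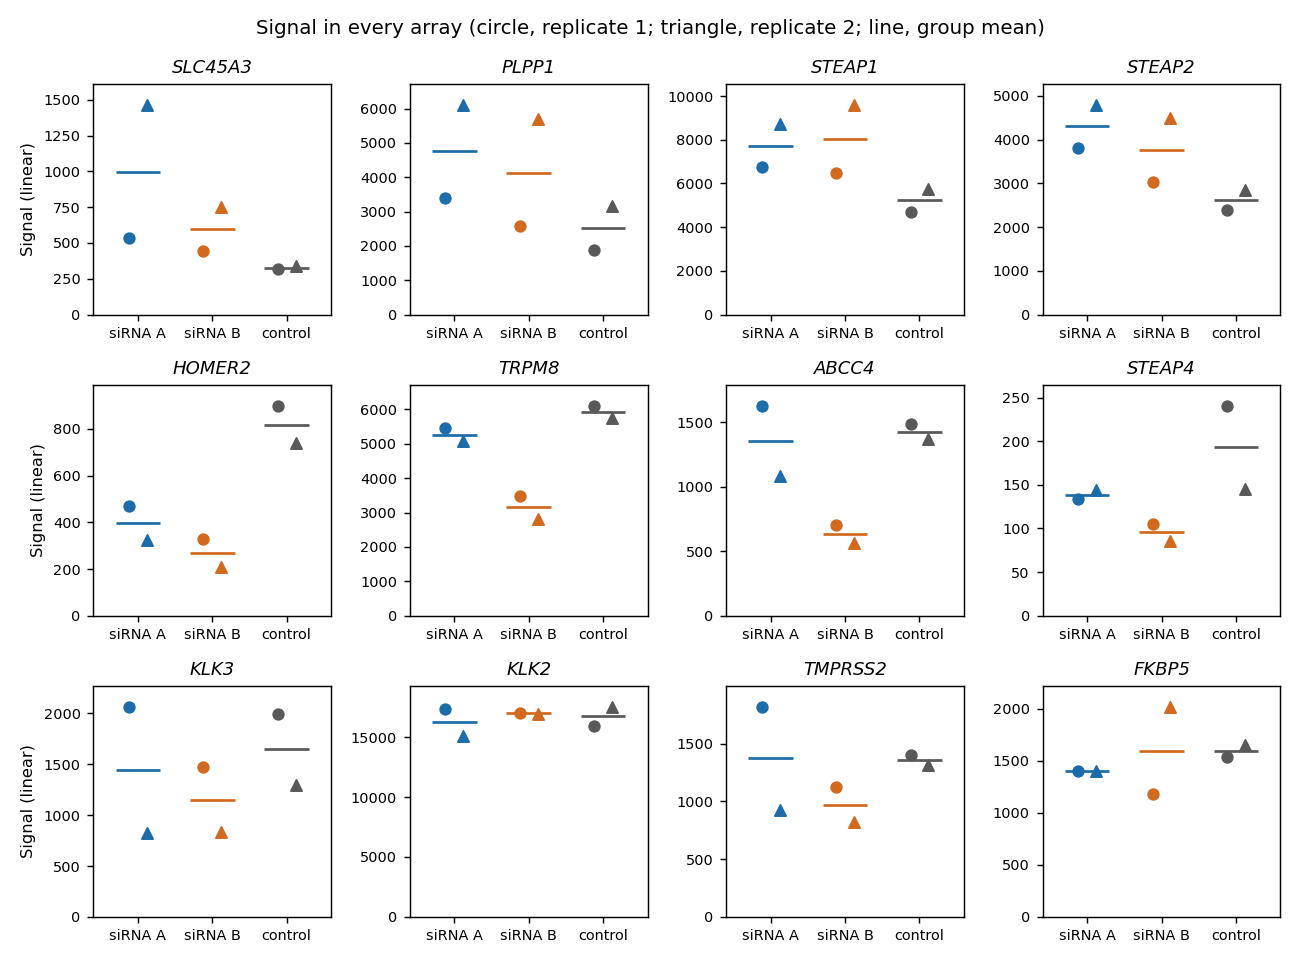
Signal of selected members (linear axis from 0), 1 panel a gene: siRNA A, siRNA B and control siRNA from left to right, with a circle for replicate 1, a triangle for replicate 2 and a line at the group's mean. HOMER2 lies lower and SLC45A3 higher in all siRNA arrays, ABCC4 and TRPM8 are lowest with siRNA B, and KLK2 lies between 15122 and 17513 in all 6 arrays.

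Both lipid enzymes tested had positive fold changes. PLPP1, a phosphatase that removes phosphate from lipids such as phosphatidic acid, had a signal of 3405 and 6115 with siRNA A and of 2579.6 and 5683.5 with siRNA B, against 1868 and 3175 with control siRNA. The second array was the brighter one in all 3 groups, so siRNA and control arrays overlapped across replicate numbers but not within them. For both siRNAs it gave a log2 fold change of 0.78 (SE 0.30, 1.71-fold, adjusted p = 0.556), and the adjusted p was 0.00325 with the block. Without the first control array the log2 fold change was 0.40, and without the second control array it was 1.16. HPGD, the enzyme that inactivates prostaglandins, had 1320.0 and 1531 with siRNA A and 1009.6 and 1937 with siRNA B, against 896 and 1035 with control siRNA. Its log2 fold change was 0.54 (SE 0.27, adjusted p = 0.658, and 0.231 with the block).

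Of the 6 signalling proteins, HOMER2 had the lowest level relative to control of any member. HOMER2 is a scaffold protein that binds glutamate receptors and calcium channels at membranes. Its signal was 469.5 and 324 with siRNA A and 330.0 and 210.0 with siRNA B, against 899 and 738 with control siRNA. All siRNA arrays were well below both controls, at 40.6% of control for both siRNAs, at 48.9% for siRNA A and at 33.7% for siRNA B. The log2 fold change was -1.30 (SE 0.27), with a 95% confidence interval of -1.88 to -0.73, a size that 0.426% of all genes exceeded or equalled. It did not pass without the block (adjusted p = 0.140) and passed with it (2.06e-05). With single arrays left out, the log2 fold change ran from -1.46 without the first siRNA B array to -1.15 without the second. With the median over the HOMER2 probe sets it was -0.68 and did not pass (adjusted p = 0.562).

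The other HOMER2 probe set above the filter gave another value. It had 199.5 and 245 with siRNA A and 175 and 301 with siRNA B, against 253 and 218 with control siRNA, and its log2 fold change was -0.05. Its arrays of the 3 groups overlapped.

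FKBP5 encodes a co-chaperone of HSP90 and is a textbook target of steroid receptors. It had a signal of 1400.4 and 1401 with siRNA A and of 1177 and 2017 with siRNA B, against 1534 and 1655.5 with control siRNA. The groups overlapped, with a log2 fold change of -0.12 (SE 0.24, adjusted p = 0.954) and a 95% confidence interval of -0.63 to 0.40. PMEPA1, a membrane-anchored inhibitor of TGF-beta signalling, had 5096 and 6520.2 with siRNA A and 5171 and 7651 with siRNA B, against 3687 and 5326 with control siRNA. Its log2 fold change was 0.44 (SE 0.20, adjusted p = 0.638), or 0.18 without the first control array, and further probe sets of the gene gave 0.79 and 1.19. CAMKK2, a kinase upstream of AMPK, RHOU, a small GTPase, and GREB1, a steroid receptor cofactor, had log2 fold changes of -0.18, -0.08 and 0.03.

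The 4 transcription and elongation factors had log2 fold changes of -0.28 to 0.41. EAF2, a partner of the ELL elongation factors, had a signal of 105 and 128 with siRNA A and of 105.5 and 139 with siRNA B, against 88.1 and 81.9 with control siRNA. All siRNA arrays were above both controls, with a log2 fold change of 0.41 (SE 0.24, adjusted p = 0.716, and 0.468 with the block). ELL2, which speeds RNA polymerase II, had 2615 and 2760.0 with siRNA A and 1716 and 2267 with siRNA B, against 1789 and 2267 with control siRNA. Its log2 fold change was 0.19 for both siRNAs and 0.44 for siRNA A over siRNA B. MAF, a leucine zipper transcription factor, had 95.7 and 51.3 with siRNA A and 109 and 140.3 with siRNA B, against 138 and 101 with control siRNA, and ZBTB16, a zinc finger repressor, had a log2 fold change of -0.23.

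Of the remaining members, CENPN, a protein of the centromere, had a log2 fold change of 0.15, and PART1, a long noncoding transcript of the prostate, of -0.29. MPHOSPH9, a phosphoprotein of the centrosome, had a signal of 384 and 428 with siRNA A and of 207.5 and 257.5 with siRNA B, against 279.7 and 371 with control siRNA. Both siRNA A arrays were above and both siRNA B arrays were below the 2 controls. For the mean of both siRNAs, 12 of the 26 members lay within 0.3 of 0 on the log2 scale, from -0.29 to 0.19. The median size of this change over all genes was 0.19, so many genes lay inside this bound. A single siRNA could lie outside it in these members. MAF had -0.63 for siRNA A, TMPRSS2 had -0.49 for siRNA B, and MPHOSPH9 had 0.32 for siRNA A but -0.45 for siRNA B. RHOU stayed inside for each siRNA, at -0.06 (A) and -0.11 (B).

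With siRNA A, where 43.1% of all genes had positive fold changes, 13 members had positive and 13 negative ones. The highest value was that of SLC45A3 (1.39, adjusted p = 0.656, and 0.000309 with the block) and the lowest that of HOMER2 (-1.03, adjusted p = 0.727, and 0.0201 with the block). With the block and centring on the genes tested, both missed the threshold for siRNA A (0.132 for SLC45A3 and 0.109 for HOMER2). The SLC45A3 value was 2.11 without the first and 0.67 without the second siRNA A array. In 11 members both siRNA A arrays were above both controls, and in 5 both were below, where 14.4% and 23.8% of all genes were. With siRNA B, where 47.6% of all genes were positive, 11 members were positive and 15 negative. Both siRNA B arrays were above both controls in 5 members and below in 8, where 13.1% and 26.2% of all genes were.

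The siRNAs gave opposite signs in 6 of the 26 members. Between them, 18 members were higher and 8 lower with siRNA A, where 45.5% of all genes were higher. The median was 0.19 over the members and -0.03 over all genes. Both siRNA A arrays lay above both siRNA B arrays in 6 members, STEAP4, TRPM8, ABCC4, ELL2, GREB1 and MPHOSPH9, where 15.7% of all genes did. They lay below in 1 member, MAF, where 15.2% of all genes did. The difference was 1.05 for ABCC4 (adjusted p = 0.216, and 0.00942 with the block) and 0.74 for TRPM8 (adjusted p = 0.203, and 0.0169 with the block). For MAF it was -0.69 (adjusted p = 0.577), and for KLK3 and TMPRSS2 it was 0.23 and 0.43, with none of these passing under the block either.

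**Figure D3:**
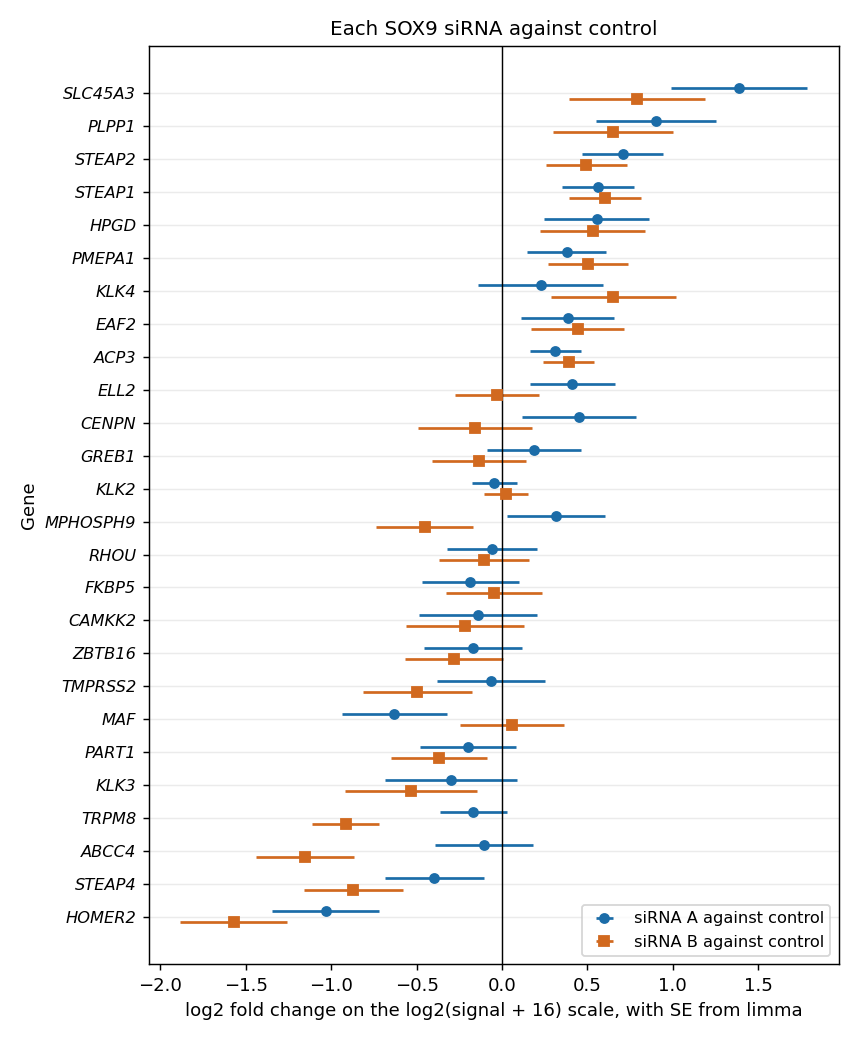
Log2 fold change of each tested member with siRNA A and with siRNA B, each against control, on the log2(signal + 16) scale, 1 row a gene, with circles for siRNA A, squares for siRNA B and bars of 1 SE from limma. Both siRNAs lie below 0 for HOMER2 and above 0 for SLC45A3, while for ABCC4 and TRPM8 siRNA A lies at -0.10 and -0.17 and siRNA B at -1.15 and -0.91.

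For both siRNAs together, all 4 siRNA arrays were above both controls in 5 members, SLC45A3, STEAP1, STEAP2, ACP3 and EAF2, where 4.58% of all genes were. They were below both in 3 members, HOMER2, TRPM8 and STEAP4, where 11.8% of all genes were. Under quantile normalization, under scaling to a common trimmed mean and under median centring, the 5 members above and HOMER2 kept this, STEAP4 and TRPM8 did not, and PMEPA1 and HPGD joined those above. PART1 joined those below under the common trimmed mean alone.

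Each siRNA array was also set against the control array of the same replicate number. SLC45A3 was higher by 0.72 and 2.06 with siRNA A and by 0.46 and 1.12 with siRNA B. HOMER2 had differences of -0.91 and -1.15 with siRNA A and of -1.40 and -1.74 with siRNA B. PLPP1, which overlapped across numbers, had 0.86 and 0.94 with siRNA A and 0.46 and 0.84 with siRNA B. All 4 differences were positive in 9 members, where 11.5% of all genes were, and negative in 4, where 16.7% were. The 9 were KLK4, SLC45A3, STEAP1, STEAP2, ACP3, PMEPA1, EAF2, PLPP1 and HPGD, and the 4 were STEAP4, TRPM8, HOMER2 and PART1.

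The second arrays of both siRNAs stood farther from control than the first for several members. In a fit with the siRNA arrays as 1 group and their second arrays left out, the log2 fold change was 0.54 for SLC45A3, 0.28 for PLPP1 and -1.02 for HOMER2. With the first arrays left out instead, it was 1.63 for SLC45A3, 1.27 for PLPP1 and -1.58 for HOMER2.

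KLK3 depended on the replicate number. Its differences were 0.05 and -0.64 with siRNA A and -0.43 and -0.63 with siRNA B. From the first to the second array of a group KLK3 differed by -1.31 in siRNA A, by -0.81 in siRNA B and by -0.62 in control. SLC45A3 differed by 1.44 in siRNA A, by 0.74 in siRNA B and by 0.09 in control, and KLK4 by 0.64 in siRNA A, by 1.28 in siRNA B and by 0.19 in control.

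**Figure D4:**
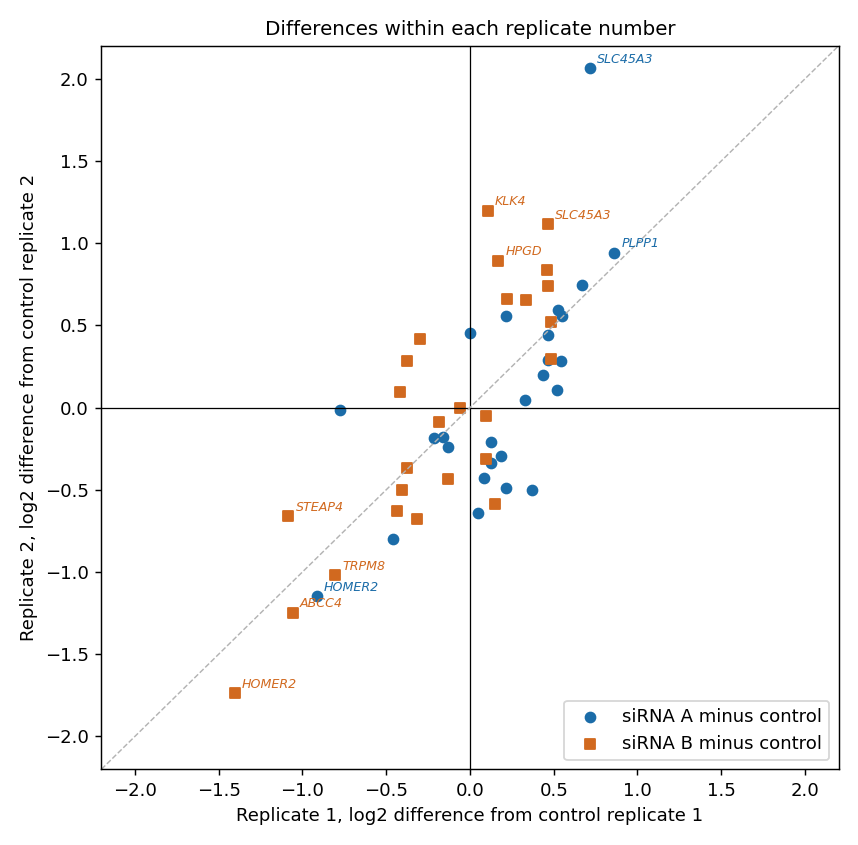
Log2 difference of each siRNA array from the control array of the same replicate number, with replicate 1 on the horizontal and replicate 2 on the vertical axis, circles for siRNA A and squares for siRNA B, 1 of each a tested member, and a dashed line of equality. HOMER2 lies below 0 and SLC45A3 above 0 in both replicates, while KLK3 with siRNA A lies at 0.05 in replicate 1 and at -0.64 in replicate 2.

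The 27 members had 80 probe sets in all. Besides those used, 35 were above the filter, in 20 genes, and 25 of these had the same sign for both siRNAs as the probe set used. The second TRPM8 probe set gave -0.83 and the second PLPP1 probe set 0.96, against -0.54 and 0.78 for those used. Those of KLK3 gave -0.48 and -0.05, those of TMPRSS2 -0.30 and -0.16, and those of ABCC4 -0.09 and -0.31, smaller in size than the -0.63 of the ABCC4 probe set used. The 3 further HPGD probe sets gave 0.49 to 0.54. The HPGD probe set used is of a type that can also pick up related sequences, as are both further KLK3 probe sets.

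**Figure D5:**
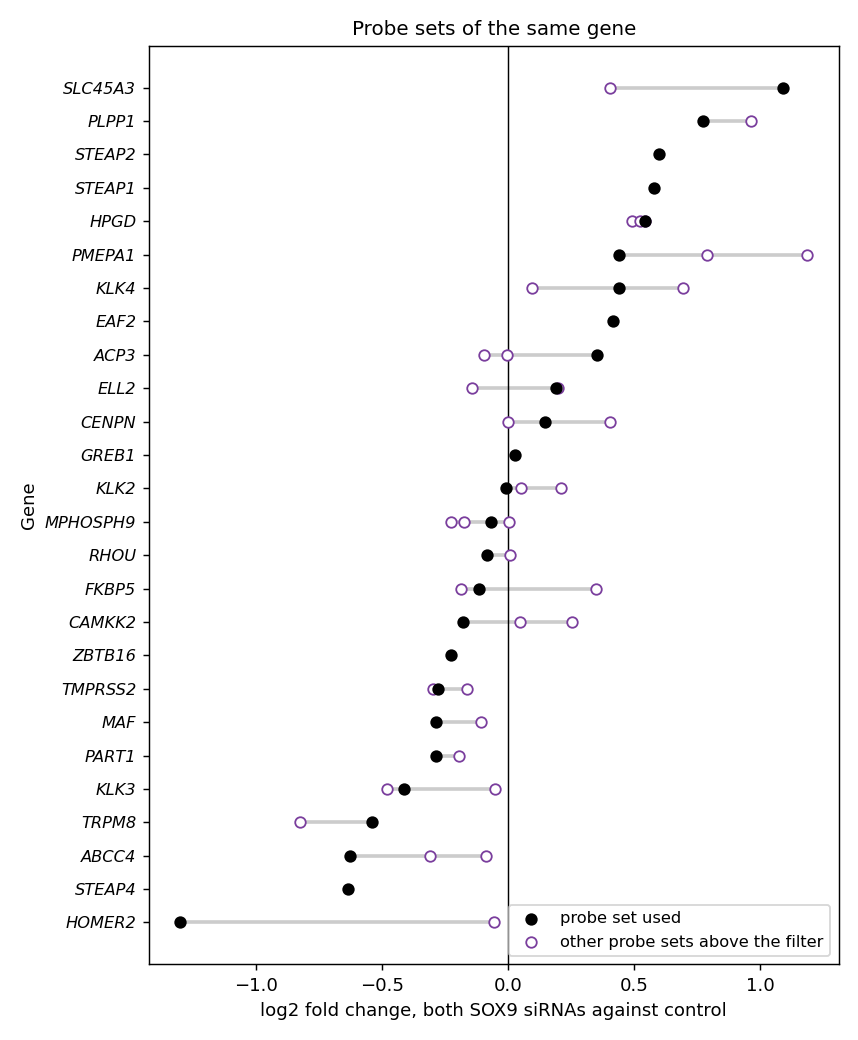
Log2 fold change for both siRNAs against control (horizontal axis) for the probe set used (filled circles) and for each further probe set above the filter (open circles), 1 row a tested member. The HOMER2 circles lie far apart, at -1.30 and -0.05, and 25 of the 35 open circles lie on the same side of 0 as the filled one.

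Other genes of the pathway were counted from lists of the receptor's partners and targets. Of 14 tested coregulators of the receptor, 6 had positive and 8 negative fold changes for both siRNAs, from -0.51 to 0.35 with a median of -0.01, and 0 passed. GATA2, a factor that opens chromatin for the receptor, had -0.51 for both siRNAs (adjusted p = 0.638) and -0.84 for siRNA B, which passed with the block (0.00253). KMT2D, a histone methyltransferase, had 0.35, KDM1A, a histone demethylase, -0.25, and HSP90AB1, the chaperone that holds the receptor, -0.24.

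Of 62 further androgen-response genes tested, 35 were positive and 27 negative for both siRNAs with a median of 0.04, and 0 passed. With the block 4 passed, all higher, where 3.53% of all genes passed and 1.11% were higher. HMGCS1 and IDI1, enzymes of cholesterol synthesis, had 1.15 and 1.03 (0.000266 and 0.000202 as adjusted p with the block). PTPN21, a tyrosine phosphatase, had 0.96 (0.00353 with the block), and ANKH, a pyrophosphate transporter, had -0.63 (0.101 with the block). With siRNA A and with siRNA B against control 0 of the 62 passed without the block. Between the siRNAs 1 passed, higher with siRNA A (adjusted p = 0.0481), where 0.0965% of all genes passed. With the block 2 were higher and 2 lower with siRNA A than with siRNA B (1.5% and 1.41% of all genes). Against control with the block, 1 was higher with siRNA A (0.426% of all genes). In the same fit 7 were higher and 2 lower with siRNA B against control (2.08% and 3.86% of all genes).

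Of 14 tested genes that androgen represses, 10 were positive and 4 negative for both siRNAs, from -1.37 to 1.68 with a median of 0.21, where 44.9% of all genes were positive. For both siRNAs 0 passed (0.0402% of all genes), or 6 with the block, 5 higher and 1 lower (3.53% of all genes, 1.11% higher and 2.42% lower). With siRNA B, 4 passed without the block, where 0.185% of all genes did, all higher: UGT2B15, UGT2B17 and UGT2B28, which couple androgens to glucuronic acid, and SI, the sucrase of the gut. Their adjusted p was 0.0131, 0.0123, 0.0123 and 0.0131 in this order, and their log2 fold changes with siRNA B were 1.96, 2.29, 2.07 and 2.57. With siRNA A the same genes had 0.18, 0.60, 0.51 and 0.79, and none passed. With siRNA A 1 of the 14 passed, where 0.0161% of all genes did: DDC, the enzyme that makes dopamine from L-DOPA. DDC had a signal of 1139.7 and 1695 with siRNA A and of 207.5 and 162 with siRNA B, against 208 and 331 with control siRNA, and its log2 fold change was 2.34 with siRNA A (adjusted p = 0.0112) and -0.48 with siRNA B (adjusted p = 0.633). Between the siRNAs 4 of the 14 passed, where 0.0965% of all genes did. DDC was higher with siRNA A by 2.82 (adjusted p = 0.00199), and UGT2B15, UGT2B28 and MET, a receptor tyrosine kinase, had values of -1.78, -1.56 and -2.17 for siRNA A over siRNA B (adjusted p of 0.0403, 0.0481 and 0.00610). The 5 calls against control were lost under quantile normalization, where 0 genes passed for either siRNA (673 genes for siRNA A and 1840 for siRNA B at an unadjusted p below 0.05 in limma). The UGT2B genes are close in sequence, so their probe sets may share signal.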

How the data were processed

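Total RNA of VCaP cells was profiled on arrays, with RNA taken 72 h after transfection and 6 ug of it labelled per sample, per the labels' protocols. For each probe set the deposited table gives an array intensity (signal, not logged), which the authors computed with MAS5, per the submitters' processing notes. The MAS5 version and target, like a genome build, were not given in the sources used here. Precision is limited by the number of arrays.

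They were analysed as log2(signal + 16), keeping the authors' scaling, which understates the change of dim genes. Of 54675 probe sets 62 control probe sets were left out, and 41091 had 1 gene symbol in the platform annotation, which can be old. Genes with a mean log2 value below the median of all probe sets (5.25, or a signal of 22.0) were left out, which left 12431 genes tested and 7344 not tested. The test was that of limma 3.58.1 in R 4.3.3 (lmFit on 3 group means over 6 arrays, 3 residual degrees of freedom, eBayes with trend=TRUE) and Benjamini-Hochberg adjustment over all genes tested. The script was tested on simulated data. Figures were drawn with matplotlib 3.10.9 in Python 3.11.15. The confidence intervals are those of limma for 1 gene and are not adjusted for the number of genes.

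Members, gene lists and the rule for named genes were chosen with earlier results of these data known. All members are accounted for. Values in every array are given for KLK3, KLK2, TMPRSS2, FKBP5, SLC45A3 and HOMER2, for members that passed with or without the block, for members whose siRNA arrays lay on 1 side of both controls, and for up to 4 that set siRNA A apart from siRNA B. KLK4, PMEPA1 and HPGD were added for their roles after their values were seen. Of the other lists, up to 4 genes with the smallest unadjusted p for both siRNAs are named, and DDC and MET were named for their calls after their values were seen.

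All groups carry the same replicate numbers, and the labels do not say whether a number stands for 1 culture or day. The correlation of deviations from the group mean was 0.63 for same-numbered arrays of the siRNAs, 0.18 between siRNA A and control and 0.18 between siRNA B and control. Each was over 0.1, and the arrays were therefore treated as paired in the fit with the block, with the calls known. The main fit took no block. The block has 2 residual degrees of freedom. Nothing beyond the term biological duplicates says how the samples were kept apart, so p-values measure the spread between these samples. Alternatives were other log offsets, normalizations, filters, probe set rules and thresholds, and each array left out in turn.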

Additional observations from a re-analysis of the deposited data

Results flagged for a closer look

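MPHOSPH9, the centrosomal phosphoprotein, drew attention because the arrays of the siRNAs lay on opposite sides of the controls. Its signal was above both controls in both siRNA A arrays and below both in both siRNA B arrays. The difference of siRNA A minus siRNA B was 0.77 on the log2 scale, and limma's test of it did not pass (adjusted p = 0.432, and 0.120 with the replicate block). Against control the log2 fold change was 0.32 with siRNA A and -0.45 with siRNA B.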

How the results depend on the processing

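With 2 arrays a group, counts of calls followed the setting, and where they moved the cause was not tested. Genes called were 5 for both siRNAs, 2 for siRNA A, 23 for siRNA B and 12 for siRNA A against siRNA B, and members called were 0 in each. After quantile normalization, scaling to a common trimmed mean, or with no filter, limma called 0 genes in all 4 comparisons, and after median centring it called 0, 1, 0 and 0 in the order given. Wherever limma called 0 genes, 142 to 1840 genes were at an unadjusted p below 0.05. The counts for both siRNAs were 3 with an offset of 1, 11 with an offset of 64, 9 with a stricter filter, 1 with the median over probe sets, 1 without the trend, 10 at an adjusted p below 0.10 and 0 in a fit that pools the siRNA arrays. In that pooled fit, leaving out replicate 2 of both siRNAs gave 0 genes, and leaving out replicate 1 of both gave 586 genes and 5 members. For siRNA A the median over probe sets gave 1. For siRNA B the counts were 9 with the median over probe sets, 14 without the trend, 8 with only the groups compared and 44 at 0.10, and members called were 1 with the stricter filter (HOMER2) and 2 at 0.10. For siRNA A against siRNA B they were 7 with an offset of 1, 3 with the median over probe sets, 6 without the trend, 56 with only the groups compared and 28 at 0.10.

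With the replicate block, genes called were 439, 223, 739 and 361 and members called 5, 3, 5 and 2, in the same order of comparisons. With the block and centring on the median of all probe sets these were 567, 211, 1094 and 600 genes and 10, 5, 10 and 3 members. With the block and centring on the median of the genes tested they were 61, 20, 563 and 247 genes and 4, 1, 7 and 2 members. Both combined settings and the pooled fit were chosen after seeing the data.

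Leaving out 1 array at a time gave 0 to 62 genes for both siRNAs, 0 to 18 for siRNA A, 0 to 1002 for siRNA B and 0 to 291 between the siRNAs. Members called were 0 to 1 for both siRNAs, 0 for siRNA A, 0 to 7 for siRNA B and 0 to 2 between the siRNAs. The highest counts for both siRNAs and for siRNA B came without the first siRNA B array, when HOMER2 passed for both siRNAs and KLK4, STEAP1, STEAP2, TRPM8, ABCC4, HOMER2 and HPGD passed for siRNA B. Without the second array of either siRNA 0 genes were called for both siRNAs. Without the first and without the second control array there were 22 and 32 genes for both siRNAs and 41 and 62 for siRNA B, and HOMER2 passed for siRNA B without the second one. The median log2 fold change of the members ran from -0.082 to 0.0987 for both siRNAs, from 0.063 to 0.277 for siRNA A, from -0.190 to 0.0946 for siRNA B and from 0.053 to 0.260 between the siRNAs.

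For both siRNAs 15 of 26 members kept their sign under all 21 alternatives and 11 did not: ACP3, CAMKK2, CENPN, FKBP5, GREB1, KLK2, KLK3, KLK4, MPHOSPH9, RHOU and TMPRSS2. Without replicate 2 of both siRNAs the log2 fold change was 0.12 for KLK3, 0.07 for TMPRSS2 and -0.04 for KLK4. These were 3 of 93 changed signs among the member values over all 4 comparisons, with adjusted p of 0.281 or more. The log2 fold change of ACP3 was -0.01 with the median over its probe sets.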
